A study of Mus musculus with 58 samples.

Results

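The parental line iXist-ChrX-Dom was compared between day 6 and day 3 of differentiation from mouse embryonic stem cells towards neural precursor cells (NPCs). Its 4 libraries, replicates 1 and 2 of each day, were chosen by their titles from the 58 libraries of the series. The cells are female and come from a cross of the strains 129S (Dom) and Cast. RNA fragments covering a strain difference can therefore be assigned to 1 of the X chromosomes, except in an X segment described below. In all 4 libraries the TetOn promoter had replaced the endogenous Xist promoter on the 129S allele, and doxycycline at 1 µg/mL had been present for 3 or 6 days in N2B27 medium. Induction time and differentiation time therefore cannot be told apart in this comparison. No dTAG-13 was given, and the labels name no other edit. The parental line is 1 engineered line, its replicates come from what the study calls duplicate experiments, and p-values measure the spread between these libraries, which may be partly technical.

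Xist is a long noncoding RNA that coats the chromosome it is transcribed from and, through SPEN and Polycomb complexes, turns off most of its genes. A smaller set of X-linked genes, the escape genes, stays partly active on the inactive X. Chromatin-associated RNA sequencing (ChrRNA-seq) reads nascent and retained transcripts, so that it follows transcription more closely than total RNA does. Cells leaving the naive pluripotent state lose a set of transcription factors that includes Nanog, Esrrb and Klf4, and neural precursors are known by Nes, Sox1, Pax6 and Hes5. In a bulk library, fewer cells of a type and less RNA per cell cannot be told apart.

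The libraries held 13832632 and 17033301 fragments assigned to genes on day 3 and 13334045 and 12873778 on day 6, of which 47.1% to 49.6% were assigned to an allele. Replicates were not copies of one library: the chi-square of their counts over genes, divided by its degrees of freedom, was 39.3 for the pair of day 3 and 28.8 for the pair of day 6. Filip1l, on chromosome 16, took 0.788% of day 3 replicate 2 and 0.416% of day 6 replicate 2, against 0.00725% and 0.00782% of the libraries numbered 1. Leaving Filip1l and the overlapping Cmss1 out of the library sizes gave 121 higher and 6 lower genes in the test of total expression described below, where the full library sizes gave 129 and 8.

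Xist itself was read almost only from the Dom X, at 99.9% to 100.0% of its allelic fragments in the 4 libraries. Its level in CPM, counts-per-million of the library total, was 5142 and 4650 CPM on day 3 and 7744 and 9007 CPM on day 6. Both day 6 libraries were above both day 3 libraries, and the log2 fold change was 0.77 with a standard error (SE) of 0.24. This difference missed the threshold of 0.05 in the edgeR quasi-likelihood fit (adjusted p = 0.258) and passed it with the replicate number as a block (adjusted p = 0.0002). Tsix, the antisense transcript of Xist, was at 191 and 245 CPM on day 3 and 143 and 148 CPM on day 6. Of 25 genes of the X inactivation machinery, 0 passed the edgeR test in either direction, and with the block 2 were higher and 3 lower, where 9.59% of all genes tested were called higher and 7.41% lower. Smchd1, a chromosomal protein that joins the inactive X late, was at 504 and 452 CPM on day 3 and at 494 and 424 CPM on day 6, with a log2 fold change of -0.07 (SE 0.18). Spen, the repressor bound by Xist, was at 161, 122, 149 and 118 CPM in the same order.

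Silencing of the Dom X went further between the days. The allelic ratio is the share of Dom among the allele-assigned fragments of a gene, 0.5 when both X chromosomes contribute equally, and it was taken for the 246 X-linked genes of the deposited ratio table. The median ratio over these genes was 0.192 and 0.178 in the day 3 libraries and 0.0833 and 0.0886 in the day 6 libraries. The means were 0.185 ± 0.0100 (SD, 2 libraries) on day 3 and 0.0859 ± 0.00370 (SD, 2 libraries) on day 6, and the days did not overlap. With 2 libraries a day, a two-sided exact permutation of the medians cannot go below the p = 0.333 that it gave. In 13 uninduced libraries of derived lines the median lay between 0.500 and 0.531. All 13 are day 0 embryonic stem cells that carry PCGF3/5 degron, SPOC or DelPID edits, 4 of them treated with dTAG-13, and uninduced libraries of the parental line were not analysed here. The autosomal median, over 8633 genes with at least 50 allelic fragments in each library, was 0.519 and 0.517 on day 3 and 0.517 and 0.516 on day 6.

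**Figure D1:**
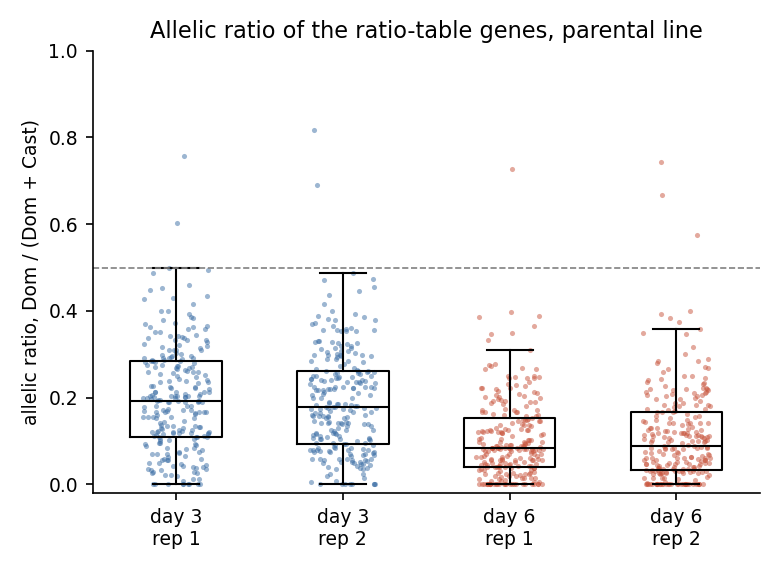
Allelic ratio, Dom / (Dom + Cast), of the 246 ratio-table genes (points) in each of the 4 libraries, with a box for the quartiles, a line for the median and whiskers to 1.5 times the interquartile range. The medians lie at 0.192 and 0.178 on day 3 and at 0.0833 and 0.0886 on day 6, below the dashed line at 0.5.

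The whole distribution moved, not its centre alone. Genes with a ratio under 0.1 numbered 56 and 65 in the day 3 libraries and 146 and 129 in the day 6 libraries. Genes with a ratio over 0.3 numbered 47 and 44 on day 3 and 9 and 12 on day 6. No Dom fragment was counted for 9 and 8 genes on day 3 and for 28 and 32 genes on day 6. Among the 156 genes with at least 50 allelic fragments in each library, the median gene had 38.6% of its ratio in those uninduced stem cell libraries on day 3 and 19.5% on day 6. Of these 156 genes, 140 had both day 6 ratios below both day 3 ratios and 0 had both above. Of all 246, 190 were lower in both day 6 libraries, 54 overlapped and 2 were higher, Cul4b and 5730405O15Rik. Cul4b rested on 20 to 38 allelic fragments per library, with ratios of 0.0800 and 0.0789 on day 3 and 0.214 and 0.250 on day 6. By comparison, 2267 of 11524 autosomal genes were lower and 1899 were higher in both day 6 libraries.

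A test per gene used the Dom and Cast counts themselves (edgeR quasi-likelihood, a term per library, log2 odds of Dom by day, Benjamini-Hochberg over 11748 genes). Of the 246 genes, 224 had the 10 allelic fragments per library that the test required. Of these 224, 89 were called lower on day 6 and 0 were called higher. Among 11524 autosomal genes 0.521% were called lower and 0.338% higher. The median change of the 224 genes was -1.09 on the log2 odds scale, with quartiles of -1.52 and -0.72, and the autosomal median was -0.01. With the replicate block 107 of the 224 were called lower and 0 higher, against 0.963% of autosomal genes called lower. Leaving out 1 library in turn gave 36 to 62 of the ratio-table genes called lower, the fewest without day 3 replicate 2.

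Dom RNA was lower on day 6 and Cast RNA moved little over the set. Summed over the 246 genes, Dom fragments, scaled as CPM over all allelic fragments, were 2978 and 2545 on day 3 and 1502 and 1397 on day 6. Cast fragments on the same scale were 11574 and 10784 on day 3 and 11625 and 11095 on day 6, so that the days overlapped. In separate edgeR fits the median log2 fold change of the 234 testable genes was -1.06 for Dom counts, with 219 of them below 0, and that of 236 genes was 0.05 for Cast counts. For Dom counts 21 genes were called lower and 0 higher, where 0.267% of all genes tested were called lower, and with the replicate block 110 were called lower. For Cast counts 1 gene was called higher and 0 lower, against 1.49% and 0.141% of all genes. With the block, 14 were higher and 15 lower in Cast counts.

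**Figure D2:**
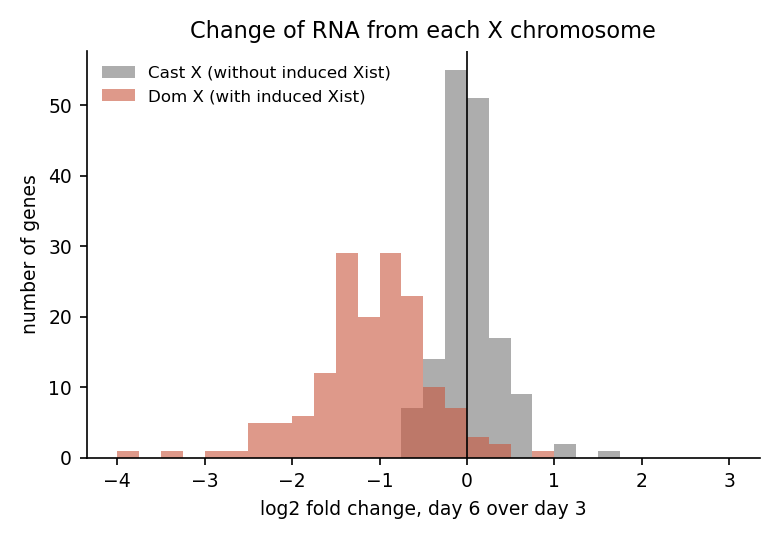
Histogram of the log2 fold change (day 6 over day 3, horizontal axis) of RNA from the Dom X and from the Cast X for the 156 ratio-table genes with at least 50 allelic fragments in each library, in bins of 0.25; the vertical axis counts genes. Dom values run from -3.98 to 0.77, with 133 genes under -0.5, and Cast values run from -0.75 to 1.61, with 7 genes under -0.5.

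The gene called on Cast counts was Gpc4, which encodes a cell-surface heparan sulfate proteoglycan. It had 751 and 906 Cast fragments on day 3 and 1224 and 1719 on day 6, a change of 1.10 on the log2 scale (SE 0.23, edgeR adjusted p = 0.0396), while its Dom fragments numbered 53 and 46, then 50 and 54. Flna, an actin-crosslinking filamin, had the largest Cast log2 fold change among the 156 genes. Its Cast fragments numbered 2186 and 1126 on day 3 and 6423 and 2609 on day 6, a log2 fold change of 1.61 (SE 0.42), which the test did not call (adjusted p = 0.112) and the block did. Its Dom fragments numbered 291 and 117 on day 3 and 227 and 64 on day 6. The ratio of Flna thus went from 0.117 and 0.0941 to 0.0341 and 0.0239, a called fall of the log2 odds by 1.94 (SE 0.13) with a log2 fold change of Dom of -0.33 (SE 0.51).

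The 10 called genes with the largest falls of the ratio, among those with at least 50 fragments in each library, were F8, Haus7, Mtcp1, Ssr4, Mpp1, Ikbkg, Upf3b, Prkx, Rbm3 and Zfp182. F8, which encodes coagulation factor VIII, lies at chrX:75172714-75380041 (mm10). Its ratio was 0.303 and 0.264 on day 3 and 0.0818 and 0.0674 on day 6, a log2 odds change of -2.29 (SE 0.40, adjusted p = 0.0003), resting on 87 or more fragments per library. Ikbkg, the regulatory subunit of the kinase that activates NF-kappa B, went from 0.201 and 0.260 to 0.0423 and 0.0727, a log2 odds change of -2.32 (SE 0.29). Haus7, a subunit of the augmin complex of the spindle, went from 0.299 and 0.316 to 0.0826 and 0.129. Mtcp1 went from 0.275 and 0.277 to 0.0811 and 0.0833. In each of these 4 genes both day 6 libraries lay below both day 3 libraries. Of the 10 genes, 7 lie between 25.7 and 30.0 Mb from Xist, and Rbm3 lies 95.3 Mb from it.

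Rbm3, a cold-inducible RNA-binding protein, fell from a higher start, 0.386 and 0.379 on day 3 to 0.228 and 0.212 on day 6. The deepest gene described here was Pola1, the catalytic subunit of DNA polymerase alpha, with at least 5349 allelic fragments in each library. Its ratio was 0.169 and 0.158 on day 3 and 0.0604 and 0.0622 on day 6, a log2 odds change of -1.58 (SE 0.08, adjusted p = 1.5e-18). Its Dom RNA fell by 1.86 on the log2 scale (SE 0.20) and its Cast RNA had a log2 fold change of -0.27 (SE 0.22).

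Genes known to escape X inactivation mostly fell too. Of 5 escape genes with a ratio, 4 were called lower on day 6, where 89 of all 224 tested ratio-table genes, or 84 of the 156 with at least 50 fragments, were. Kdm6a, a histone H3K27 demethylase, went from 0.488 and 0.486 to 0.387 and 0.393, a log2 odds change of -0.57 (SE 0.07). Utp14a, a ribosome biogenesis factor, went from 0.461 and 0.446 to 0.365 and 0.349. Ddx3x, an RNA helicase, went from 0.351 and 0.354 to 0.247 and 0.205. Shroom4, a cytoskeletal regulator, went from 0.288 and 0.236 to 0.152 and 0.137. Eif2s3x, a translation initiation factor subunit, was at 0.284 and 0.327 on day 3 and at 0.273 and 0.301 on day 6, a log2 odds change of -0.14 (SE 0.17) that the test did not call.

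The highest ratio on day 6 belonged to Dynlt3, a dynein light chain, at 0.728 and 0.744 against 0.758 and 0.690 on day 3, so that the days overlapped. Its median in the uninduced libraries was already 0.865. The other genes with the highest day 6 ratios besides Kdm6a, Utp14a and Eif2s3x were Suv39h1, Slc25a5, Rpl10, Zfx, Pnma5 and Atp6ap2, and of these 6 Atp6ap2 alone was called lower, with Zfx called as well under the block. Only 6 of the 156 deeper genes kept a mean ratio over 0.3 on day 6, where 29 had one on day 3.

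At the other end, 13 of the 156 genes had a mean ratio under 0.02 on day 6. Tex11, a meiotic gene, had 0 Dom fragments of 105 on day 6, with a Wilson 95% interval of the ratio from 0 to 0.0353, and 2 Dom fragments in each day 3 library. Such intervals cover counting error only. Sytl5, a synaptotagmin-like protein, was called, with ratios of 0.136 and 0.0800 on day 3 and 0.0110 and 0 on day 6, a log2 odds change of -3.93 (SE 0.98).

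**Figure D3:**
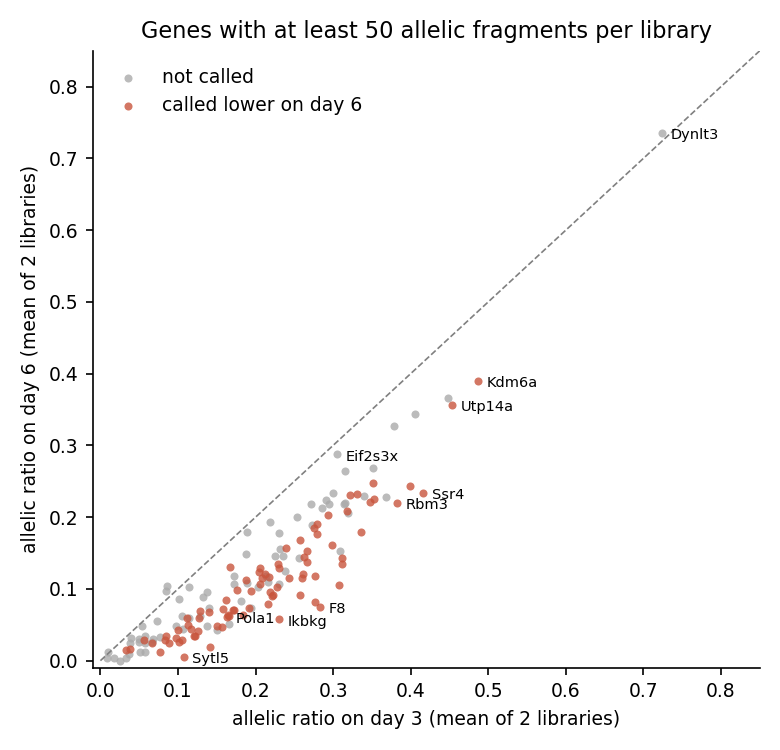
Mean allelic ratio on day 3 (horizontal axis) and day 6 (vertical axis), each over 2 libraries, of the 156 genes with at least 50 allelic fragments in each library, with genes called lower on day 6 in red and the line of equality dashed. Of the 156 genes, 140 had both day 6 ratios below both day 3 ratios, and Dynlt3 and Kdm6a have the highest ratios on day 6.

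The order of the genes was largely kept. The mean day 3 and day 6 ratios of the 156 genes had a Spearman correlation of 0.920, taken across genes of the same 4 libraries, which are not independent replicates. Distance was taken from Xist to the nearer end of the gene. The 39 genes within 20 Mb had median ratios of 0.118 and 0.123 on day 3 and 0.0628 and 0.0522 on day 6. The 40 genes over 80 Mb away had medians of 0.283 and 0.258 on day 3 and 0.164 and 0.153 on day 6. Of the 84 calls among the 156 genes, 16 were among the 39 nearest and 26 among the 40 farthest genes, and there were calls for 24 of 42, 15 of 27 and 3 of 8 genes in the bins between, the last of which holds few genes. Distance had a Spearman correlation across genes of 0.379 with the day 3 ratio and 0.351 with the day 6 ratio, and of 0.117 with the log2 odds change.

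Of 11 X-linked chromatin genes with a ratio, 8 were called lower on day 6, beside the 84 of 156 of all deeper genes. Hdac8, a histone deacetylase that lies 0.955 Mb from Xist, went from 0.0833 and 0.111 to 0.0259 and 0.0367. Ogt, the O-GlcNAc transferase, went from 0.262 and 0.289 to 0.182 and 0.188. Phf6, Hcfc1, Hdac6, Bcor and Kdm6a were also called. Of 7 tested X-linked genes linked to pluripotency or MAPK signalling, Klhl13 and Araf were called lower, 2 of 7 beside the 89 of 224 of all tested. Klhl13, a ubiquitin ligase adaptor, was at 0.111 and 0.116 on day 3 and at 0.0448 and 0.0555 on day 6.

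The label of the cells was set against marker genes before the expression results. On day 6 Nes was higher, Pax6 was low on both days, and Hes5, Fabp7 and Olig2 were at or under the limit of detection. Nes, the intermediate filament of neural progenitors, was at 14.7 and 6.93 CPM on day 3 and 91.7 and 60.8 CPM on day 6, a log2 fold change of 2.82 with an SE of 0.36 (adjusted p = 0.0213). Pax6 was at 3.25 and 4.46 CPM on day 3 and 2.55 and 2.49 CPM on day 6. Hes5, Fabp7, Olig2, Sox9 and Pou3f2 had at most 0.233 CPM in every library, where 3 counts correspond to 0.176 to 0.233 CPM. Sox1 and Sox2 had 0 counts in all 58 libraries. In the annotation of the count files Sox1 lies inside Gm5607 and Sox2 inside Sox2ot on the same strand, so these zeros are not read as absence.

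The naive pluripotency genes had lower values on day 6 but were still read. All 15 had a log2 fold change below 0, with a median of -0.53, where the median of all 14133 genes tested was -0.01. Of the 15, 1 was called lower, where 0.0566% of all genes were, and 8 with the replicate block, where 7.41% were. Zfp42 (Rex1), a naive-state zinc finger protein, was called. It was at 294 and 293 CPM on day 3 and 152 and 136 CPM on day 6, a log2 fold change of -1.04 with an SE of 0.16 (adjusted p = 0.0428). Esrrb was at 348 and 598 CPM on day 3 and at 267 and 371 CPM on day 6, so that the days overlapped. Nanog was at 28.6 and 24.3 CPM, then 21.7 and 24.5 CPM. Klf2, Klf4, Esrrb, Tfcp2l1, Nr0b1, Dppa5a and Fgf4 were the others called with the block.

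Of 15 tested core and formative genes 0 were called, and with the block 7 were lower and 1 higher, where 7.41% and 9.59% of all genes were. Pou5f1 (Oct4) was at 87.6 and 59.4 CPM on day 3 and at 79.8 and 43.5 CPM on day 6, and Dnmt3b, a DNA methyltransferase, at 518 and 341, then 447 and 185 CPM. In both genes, as in Otx2 (67.0 and 48.3, then 53.5 and 24.2 CPM), replicate 2 was below replicate 1 on both days.

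Of the 24 neural progenitor genes 11 could be tested, and Nes alone was called, higher, where 0.913% of all genes were called higher. Of the 11, 8 had a log2 fold change above 0 and 3 below 0, and 12 of the 24 stayed under 1 CPM in all 4 libraries. Ncam1, a neural adhesion molecule, was at 465 and 697, then 354 and 684 CPM, so that the days overlapped. With the block 5 were higher and 0 lower, where 9.59% of all genes were called higher. The other 4 were Vim, a mesenchymal and progenitor intermediate filament, at 25.5 and 17.6, then 40.8 and 44.4 CPM; Cdh2 (N-cadherin) at 72.6 and 65.6, then 134 and 147 CPM; Zfp521, a factor of early neural fate, at 120 and 146, then 194 and 255 CPM; and Meis2. Each of these had both day 6 libraries above both day 3 libraries. Of all 24 genes, 7 had both above and 3 had both below. The share over all genes was not counted, so these numbers are not read as a change of the list. Of 16 neuronal genes 10 were tested and 0 called, and with the block Gap43, a growth cone protein, and Tubb3 were higher and Elavl3 lower. Gap43 was at 16.3 and 14.3 CPM on day 3 and 40.1 and 28.0 CPM on day 6.

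Calls among markers of other cell types stand beside 0.913% of all genes called higher, or 9.59% with the block. With the block, 3 of 5 tested mesoderm and endoderm genes were higher. Of 5 tested mesoderm and endoderm genes, T (brachyury) was called higher, at 0.868 and 0.587 CPM on day 3 and 4.35 and 3.19 CPM on day 6. Gata4 and Gata6, endoderm factors, were higher with the block, and both were higher in replicate 2 than in replicate 1 on each day. Gata6 was at 0.795 and 2.76 CPM on day 3 and at 2.10 and 11.1 CPM on day 6. The stem cells had been separated from feeder fibroblasts by pre-plating, and how many feeders remained was not measured here. The 10 fibroblast genes summed to 10.2 and 6.11 CPM on day 3 and to 14.0 and 24.6 CPM on day 6. Col1a1 was at 1.01 and 0.352 CPM, then 2.48 and 4.12 CPM, and Col1a2 at 3.11 and 1.29, then 6.08 and 14.4 CPM. Neither was called without the block (adjusted p = 0.133 and 0.143), and both were with it. Twist1, Prrx1, Postn and Dcn each had at most 1.05 CPM. Of 6 tested neural crest genes Ets1 was called higher, at 7.01 and 7.34, then 22.4 and 36.1 CPM, and Sox10 had at most 0.587 CPM. With the block 2 of the 6 were higher and 1 lower, where 7.41% of all genes were called lower.

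**Figure D4:**
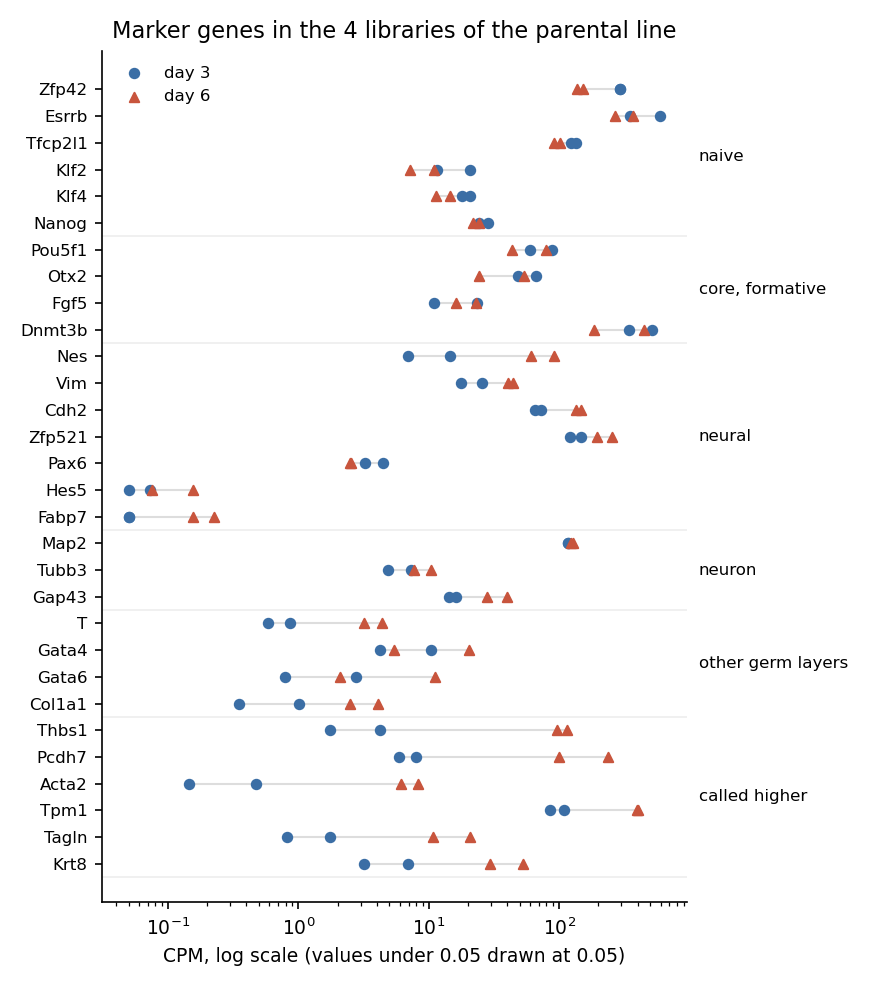
CPM on a log scale (horizontal axis) of marker genes and of genes called higher, with day 3 libraries as blue circles and day 6 libraries as red triangles; values under 0.05 CPM are drawn at 0.05. The naive genes overlap or lie lower on day 6, Nes and the genes of the last group lie higher, and Hes5 and Fabp7 stay near 0.

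Over all genes, calls without the replicate block were mostly upward, and calls with it were more even between the directions. With edgeR's quasi-likelihood test on the 4 libraries, 129 of 14133 genes were higher and 8 lower on day 6. With the replicate block, 1356 were higher and 1047 lower, and all 137 genes called without the block were among them in the same direction. The fit over all 58 libraries called 0 genes and had 1004 below an unadjusted p of 0.05, against 1419 in the fit of the 4 libraries. Leaving out 1 library in turn raised the counts to between 225 and 386 higher and between 43 and 100 lower. Of the 129 genes, 29 were higher by 8-fold or more.

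The 8 lower genes were Sp110, 1700013H16Rik, Rhox5, Serpina3m, Terc, 2410007B07Rik, Zfp42 and Inpp5d. Terc, the RNA template of telomerase, was at 73.8 and 77.6 CPM on day 3 and 22.1 and 19.4 CPM on day 6, a log2 fold change of -1.88 with an SE of 0.18 (adjusted p = 0.0106). Rhox5, an X-linked homeobox gene, was at 10.8 and 8.45, then 1.80 and 1.48 CPM. Inpp5d, a phosphoinositide phosphatase, was at 112 and 115, then 56.7 and 57.1 CPM, and its call (adjusted p = 0.0476) was lost with RLE size factors, without day 6 replicate 1, with Filip1l and Cmss1 left out of the library sizes and over all 58 libraries.

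Among the higher genes outside the lists, Thbs1 had the largest change of those named by rule. Thbs1 encodes thrombospondin 1, a secreted matrix protein. It was at 4.19 and 1.76 CPM on day 3 and 95.8 and 115 CPM on day 6, a log2 fold change of 5.17 with an SE of 0.38 (adjusted p = 0.0088). Pcdh7, a protocadherin, was at 5.93 and 7.93, then 100.3 and 239 CPM (4.62, SE 0.48). Col12a1, a fibril-associated collagen, was at 0.868 and 0.646, then 14.6 and 13.5 CPM (4.21, SE 0.31). Pappa, a metalloproteinase that cleaves IGF-binding proteins, was at 0.289 and 0.235, then 5.10 and 6.76 CPM. Sh3rf2, Macc1, Prss23, Kynu and Pcdh11x had log2 fold changes of 3.83 to 4.02. In all of these genes the day 6 libraries lay above the day 3 libraries.

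Several of the 129 genes encode parts or partners of the actin cytoskeleton, a grouping made after their values were seen and not tested for enrichment. Acta2, smooth muscle actin, was at 0.145 and 0.470 CPM on day 3 and at 6.08 and 8.23 CPM on day 6, a log2 fold change of 4.44 (SE 0.51). Acta1, skeletal muscle actin, was at 0.145 and 0 CPM, below the 3-count floor in both day 3 libraries, and at 3.22 and 1.86 CPM on day 6. Tpm1, a tropomyosin, was at 109 and 85.8, then 399.6 and 394 CPM (2.02, SE 0.19). Tagln (transgelin) was at 1.74 and 0.822, then 20.6 and 10.8 CPM. Flnc, Cald1, Vcl, Lpp and Synpo2l were also called. Basement membrane and matrix genes among the calls were Col4a1, Col4a5, Col4a6, Sparc, Efemp1, Adamts5 and Serpinh1. Col4a1, a type IV collagen chain, was at 59.1 and 68.8, then 220 and 423 CPM. The keratins Krt8 (6.94 and 3.17, then 52.7 and 29.5 CPM) and Krt19 and the desmosomal Dsp, proteins of epithelia, were called too. The fibroblast, mesoderm and endoderm markers had the higher sums and calls given above in the same libraries, and their part in these changes was not tested.

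Amot, a junctional protein, and Lats2, a kinase, both known in the Hippo pathway that controls the TEAD partners YAP and TAZ, were called higher as well. Amot was at 8.31 and 4.70, then 52.9 and 45.4 CPM, and Lats2 at 23.1 and 18.7, then 66.8 and 74.9 CPM. Tgfb2, a secreted growth factor, was at 5.35 and 3.23, then 40.2 and 33.8 CPM, a log2 fold change of 3.11 (SE 0.28).

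The promoters of 3 of these actin and tropomyosin genes are shown because they carry the letters of 2 of the 5 motifs that were searched after the values were seen. They are the 250 bases before a RefSeq start (GRCm38.p6), Acta1 at chr8:123894776-123895025, Acta2 at chr19:34255374-34255623 and Tpm1 at chr9:67049214-67049463, all on the minus strand. Capitals mark the CArG box, the motif known for SRF, and GGAATG or its reverse complement CATTCC, the motif known for TEAD factors. The CArG box was searched as CCWWWWWWGG, where W is A or T. Stretches that differ from it by a base were not marked or counted, among them ccctatatgg and ccttgtttgg in Acta2.
Acta1: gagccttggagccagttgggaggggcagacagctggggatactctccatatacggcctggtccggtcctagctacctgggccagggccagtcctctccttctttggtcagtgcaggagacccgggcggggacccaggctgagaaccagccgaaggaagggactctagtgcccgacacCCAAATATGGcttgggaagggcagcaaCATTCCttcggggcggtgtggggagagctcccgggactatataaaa
Acta2: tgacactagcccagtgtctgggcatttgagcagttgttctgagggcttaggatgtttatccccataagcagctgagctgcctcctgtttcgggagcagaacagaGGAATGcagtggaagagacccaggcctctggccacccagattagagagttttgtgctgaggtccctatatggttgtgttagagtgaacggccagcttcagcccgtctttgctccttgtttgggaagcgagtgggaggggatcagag
Tpm1: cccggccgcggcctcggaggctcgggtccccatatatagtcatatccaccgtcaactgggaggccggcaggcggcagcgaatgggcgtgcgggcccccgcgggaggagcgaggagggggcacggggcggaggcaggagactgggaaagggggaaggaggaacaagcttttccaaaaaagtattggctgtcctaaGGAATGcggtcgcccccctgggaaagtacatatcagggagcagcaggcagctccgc
In Acta1 the CArG box begins 73 bases and CATTCC 46 bases before the start. GGAATG begins 146 bases before the start in Acta2 and 56 bases before it in Tpm1. Over the RefSeq promoters, taken from 250 bases before to 50 after a start, 84 of the 129 higher genes could be matched by symbol. On both strands, a CArG box was found in 3 of the 84 (3.57%), where 1.53% of the 10566 tested genes with a promoter had one, and GGAATG in 21 of the 84, where 14.8% of tested genes did. Of 3 further motifs, TGANTCA was found in 11 (13.1%, against 6.07%), CACGTG in 7 (8.33%, against 11.7%) and GGGCGG in 58 (69.0%, against 69.0%). Over all 32851 promoters the shares were 1.63%, 14.7%, 7.81%, 7.15% and 35.7%. No test was made of these shares, and a match is not a binding site.

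Of the 129 higher and 8 lower genes, 11 and 2 lie on the X, out of 492 X-linked genes tested. Of all genes tested, 0.913% were called higher and 0.0566% lower. Of the ratio-table genes only Gria3 was called, and the median log2 fold change of total RNA over the 246 was -0.12. Gria3, an AMPA glutamate receptor subunit, was at 76.9 and 49.8 CPM on day 3 and 165 and 151 CPM on day 6. Its Dom fragments numbered 5 and 5, then 4 and 3, and its Cast fragments 41 and 39, then 82 and 62. Il1rapl1, a synaptic adhesion protein outside the ratio table, had more Cast and fewer Dom fragments on day 6. Its Cast fragments numbered 93 and 48 on day 3 and 359 and 371 on day 6, and its Dom fragments 10 and 8, then 2 and 5. The ratio was thus 0.0971 and 0.143, then 0.00554 and 0.0133, while total RNA had a log2 fold change of 2.31 with an SE of 0.35 (adjusted p = 0.0406).

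Of the other X-linked genes called higher, 8 lie beyond Xist, among them Amot, Pcdh11x, Col4a5, Col4a6 and Arhgap6. There Dom made up 0.996% to 1.22% of allelic fragments in the 4 libraries over 328 genes, and 0.701% to 1.29% in the 13 uninduced libraries, so the ratio does not report silencing in that segment. The study names a recombination event in this line among the reasons why some genes were not evaluated. Cast fragments beyond Xist are therefore not read as RNA of the Cast X alone. Arhgap6, a GTPase-activating protein, had 192 and 348 Cast fragments on day 3 and 863 and 1423 on day 6.

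Signalling lists showed few calls without the block, where 0.913% of all genes were called higher. With the block the shares of all genes were 9.59% higher and 7.41% lower, and the lists hold 7 to 15 tested genes. Of 8 tested WNT genes, Wnt3, a ligand, was called higher, at 2.75 and 1.41 CPM on day 3 and 11.4 and 9.87 CPM on day 6. In the Notch, FGF and ERK, retinoic acid, BMP and hedgehog lists 0 genes were called. With the block, 3 of 12 tested Notch genes were higher (the receptors Notch2 and Notch3 and the modifier Lfng) and 3 lower (the ligands Dll1 and Jag1 and the target Nrarp). Notch2 was at 131 and 145 CPM, then 188 and 179 CPM. In FGF and ERK signalling the block gave 3 higher of 15 (the receptor Fgfr2, the inhibitor Spred1 and the target Etv4) and 2 lower (the ligand Fgf4 and the target Etv5). Fgf4 was at 72.7 and 51.1, then 41.3 and 35.1 CPM. In the hedgehog list, the block gave the factor Gli3 and the inhibitor Hhip as higher and the receptor Ptch1 as lower. Gli3 was at 293 and 260, then 404 and 415 CPM.

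In the lists that follow, 1 or 2 genes were called with the block, where 9.59% of all genes were called higher and 7.41% lower. Without the block, all 10 proliferation genes had a log2 fold change below 0, with a median of -0.14. Of these 0 were called, or 2 with the block, Top2a and Pcna. All 9 genes of the ATF4 stress response had one above 0, with a median of 0.24, and 0 were called, or 2 with the block, Trib3 and Slc7a11. Of 5 tested glial and 8 tested p53 pathway genes 0 were called, and with the block 1 and 2 were higher. Of 39 Hox genes 1 could be tested, and 38 stayed under 1 CPM in all 4 libraries.

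The same interval was available in 2 derived lines, with no library shared. The first carries degron tags on PCGF3 and PCGF5 and was left without dTAG-13. All 129 higher and all 8 lower genes moved the same way there, and 125 and 7 were called, where 12.1% and 10.8% of the genes tested in that line were called higher and lower. Its median ratios were 0.184 and 0.190 on day 3 and 0.0649 and 0.0833 on day 6. Of 218 ratio genes tested 134 were called lower and 0 higher, with a median log2 odds change of -1.43, where 1.86% of autosomal genes were called lower. All 89 genes called lower in the parental line were lower there, and 82 were called. The test of the difference between the lines called 0% of genes in total expression, 0 of 14774 with 789 at an unadjusted p under 0.05 and 128 called with the block. For the allelic ratio it called 0 of 214 ratio genes, with 34 at an unadjusted p under 0.05, and 0.0360% of autosomal genes.

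The second line carries a mutation of the SPOC domain of SPEN, and its replicates are 2 clones. Its median ratios were 0.411 and 0.405 on day 3 and 0.331 and 0.338 on day 6. Here 35 of 225 ratio genes were called lower and 0 higher, with a median log2 odds change of -0.41, where 0.0440% of autosomal genes were called lower. Of the 89 genes called lower in the parental line, 84 were lower in the SPOC line and 28 were called. The difference between the lines in the day effect was called for 20 of 220 ratio genes, where 0.0989% of autosomal genes were called, and in all 20 the change was less negative in the SPOC line. In Pola1 the SPOC ratios were 0.486 and 0.504 on day 3 and 0.438 and 0.482 on day 6, a difference from the parental line of 1.38 in log2 odds (SE 0.11, adjusted p = 2.2e-10). In Ikbkg they were 0.343 and 0.382, then 0.353 and 0.368, a difference of 2.32 (SE 0.35). Kdm6a, Ddx3x, Rbm3, Klhl13, Flna and F8 were also among the 20. These calls depended on the test. With limma on the ratios themselves, which changes the scale, the test and the genes tested together, 0 of 246 genes differed between the lines, with 45 at an unadjusted p under 0.05 and a median difference of 0.0180.

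In total expression the SPOC line itself gave no calls in a fit without a term for the clone. Of the 129 higher genes 121 were tested there and 107 had the same direction, with a median log2 fold change of 0.43, and all 8 lower genes had the same direction. Of these genes 0 were called there. EdgeR called 0% of the 13986 genes of that line in either direction, with 865 below an unadjusted p of 0.05. Each clone was read on both days, so differences between clones count in the spread of this fit. A fit of this line alone with a clone term was not made, and the 0 calls do not show that the day had no effect. The difference between the lines was called for 3 of 14450 genes (0.0208%), Col12a1, Wdr72 and Gm14005, with 785 at an unadjusted p under 0.05. Col12a1 was at 1.53 and 1.07 CPM on day 3 and at 1.32 and 1.15 CPM on day 6 in the SPOC line, a difference in log2 fold change of -4.27 (SE 0.43). With the block 952 genes differed, and in the fit over all 58 libraries 0 did, with 313 at an unadjusted p under 0.05.

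**Figure D5:**
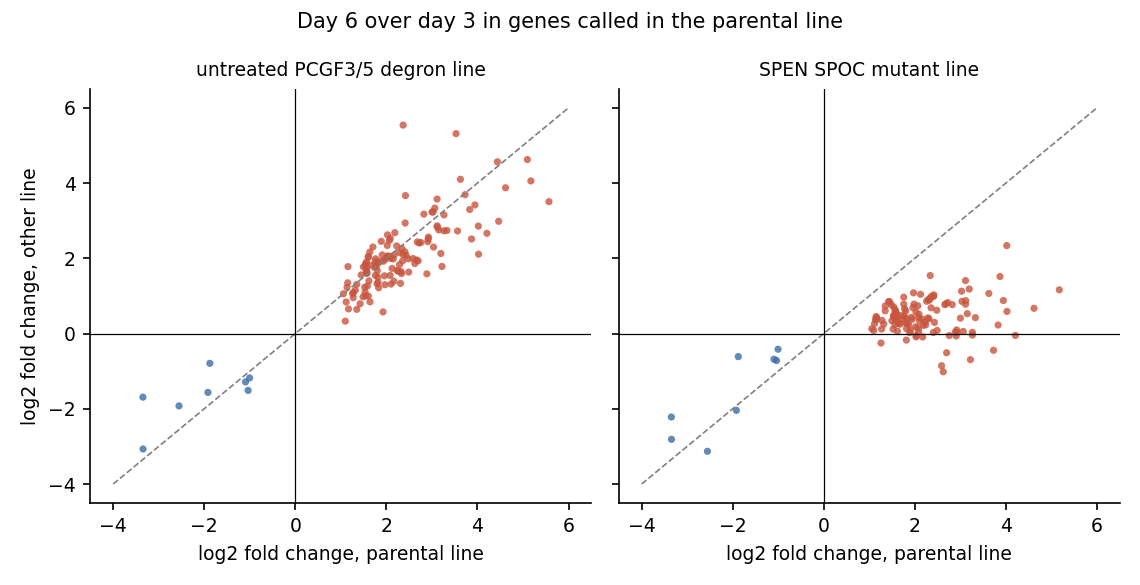
Log2 fold change of total RNA, day 6 over day 3, in the parental line (horizontal axis) and in the untreated PCGF3/5 degron line (left) or the SPEN SPOC mutant line (right, vertical axes), for the genes called higher (red) or lower (blue) in the parental line that could be tested in the other. In the left panel all 137 genes keep their direction, and in the right panel 107 of 121 higher genes do, mostly closer to 0.

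Autosomal genes with a changed Dom share were few. Of 11524 tested, 39 had a higher and 60 a lower Dom share on day 6, on 19 chromosomes, with a median absolute change of the ratio of 0.0991. Of these 99, 11 were also called in total expression. Tgfb2 went from 0.707 and 0.703 on day 3, over 41 and 37 allelic fragments, to 0.448 and 0.427 on day 6, over 337 and 274. Axl, a receptor tyrosine kinase, went from 0.922 and 0.891 to 0.626 and 0.514. Slc39a8, a metal transporter, went the other way, from 0.580 and 0.571 to 0.807 and 0.841. In the untreated degron line 94 of the 99 changed in the same direction and 65 were called, and in the SPOC line 67 of 97 and 7.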

How the data were processed

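ChrRNA-seq libraries were taken by their labels. Before deposit the authors filtered rRNA with Bowtie2 (2.3.2), aligned with STAR (2.4.2a) to N-masked mm10, assigned alleles with SNPsplit and counted fragments per gene by strand, introns included, with featureCounts. The deposited counts give all, Cast and Dom fragments per gene, unnormalized, for 22556 genes, 908 on the X. The deposited table of allelic ratios gives a fraction, Dom over Dom plus Cast, for 246 X-linked genes that the authors had selected.

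Counts were tested with edgeR 4.0.16 (filterByExpr, TMM, quasi-likelihood, Benjamini-Hochberg over all genes tested, threshold 0.05). Alleles were tested on Dom and Cast counts of genes with at least 10 allelic fragments in each library, with a term per library. CPM are counts over the library total. Medians of libraries were compared by exact permutation. DESeq2 1.42.0 and limma 3.58.1 gave alternatives. On simulated counts for the same 4 libraries (14133 genes), 46% of 2-fold and 88% of 4-fold changes were recovered with 2.9% false calls, and 33% of log2 odds changes of 1 (11748 genes). The simulated libraries were drawn independently of replicate number and tested without the block. In the allele simulation the spread between libraries was set, not estimated from the data. Depth and the 3-count floors are given with the results.

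The study describes duplicate differentiation experiments with the parental and SPOC lines side by side, but neither it nor the labels tie a replicate number to 1 experiment. Deviations of same-numbered libraries correlated at 0.585 in expression and 0.0254 in ratios, and the second principal component (38.4% of variance) separated the numbers. The fit without the replicate block was the main one, and blocked counts stand beside it because they differ.

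Members and lists were chosen with earlier results of these data known. Genes named by rule were up to 5 per list (called or highest in CPM), the 10 largest changes per direction outside the lists (5 CPM or more), the 10 largest called falls and the 10 highest and 5 lowest ratios. Flna, Gpc4, Cul4b, 5730405O15Rik, the actin, matrix, keratin, Hippo, Notch and X-linked expression examples and the promoters were chosen after their values were seen. Some genes that the rule selects are not reported here. Gene positions came from the count files, promoters from RefSeq.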

Additional observations from a re-analysis of the deposited data

Results flagged for a closer look

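The difference of the day effect between lines passed its test for the following genes. Against the untreated PCGF3/5 degron line, the allelic change differed in 4 autosomal genes, Nxph1 (2.18 in log2 odds), Cmss1 (-1.66), Ghr (-0.90) and Slit3 (-0.53), where a positive value is a larger rise or smaller fall of the Dom share in the other line. Cmss1 overlaps Filip1l on the other strand, and both differed strongly between replicates.

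Against the SPOC line, total expression differed in Col12a1 (-4.27 in log2 fold change), Wdr72 (-4.18) and Gm14005 (-2.39). The allelic change differed in 20 ratio-table genes, the largest being F8 (2.54 in log2 odds), Ikbkg (2.32), Flna (1.49) and Pola1 (1.38), and in 11 autosomal genes. Of those, Dync1i1 was at 1.47, Pclo at -1.62, Cmss1 at -0.99, Sema6a at -0.94, Tox at -0.90 and Ghr at -0.90.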

How the results depend on the processing

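The changes of the median ratio and of the median Dom and Cast counts kept their sign in every alternative run. All 137 genes called in total expression kept their direction with the replicate block. Estimates near 0 could change sign, as in Mki67, with a log2 fold change of -0.01 without the block and 0.0006 with it. Counts of genes called moved most. With the replicate block 1356 genes were higher and 1047 lower in total expression, 110 ratio-table genes were called on Dom counts and 29 on Cast counts, and 198 autosomal genes had a changed Dom share. Without the filter on low counts 377 were higher and 74 lower, with DESeq2 326 and 59, and with all 58 libraries 0 and 0. Leaving out 1 library gave 225 to 386 higher genes (386 without day 3 replicate 1, 225 without day 3 replicate 2, 359 and 382 without day 6 replicates 1 and 2) and 43 to 100 lower (100, 43, 76 and 83 in the same order). In those fits the remaining library of a day is assumed to vary like the other day. The ratio-table genes called lower numbered 36 to 62 (44, 36 and 52 without day 3 replicates 1 and 2 and day 6 replicate 1), and autosomal genes with a changed share 14 to 68 (36, 14 and 46 without day 3 replicates 1 and 2 and day 6 replicate 2). Genes called on Dom counts numbered 25 to 33 (33 without day 6 replicate 2), with a median log2 fold change of -1.16 to -0.95, and on Cast counts 2 to 4, with a median of 0.01 to 0.11. The change of the median ratio was -0.106 to -0.0922 on leaving out a library, -0.0846 from summed fragments and -0.0854 for the mean over genes. Between lines, the block gave 128 genes against the degron line and 952 against the SPOC line in total expression, where all 58 libraries gave 0, and 33 ratio-table genes against the SPOC line, where limma on ratios gave 0. With the block, 9.59% of all genes tested in total expression were called higher and 7.41% lower. Over all lists, the calls in total expression were 38 higher and 32 lower with the block, 11 higher with DESeq2, and 0 higher and 0 lower with all 58 libraries. The cause of these differences was not tested. Same-numbered libraries deviated together in expression, and the study describes duplicate experiments, but no source ties the numbers to them. The ratio-table genes called lower numbered 83 with at least 50 fragments and 112 when tested alone. With 2 libraries a day, 46% of simulated 2-fold changes were recovered without the block, so smaller changes were often not detectable in that fit.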
